A study of Mus musculus with 6 samples.

Results

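The apoptosis machinery and the p53 targets described here are 37 genes of the 53858 in the deposited count table, found there by gene name. They are 17 pro-death genes, 6 pro-survival genes and 14 genes of the p53 axis, which holds *Trp53*, the regulators *Mdm2* and *Mdm4*, and 11 target genes. Each library came from a pool of 10 to 15 spinal motor neurons, picked by their dyes from wild-type mice 6 days after sciatic nerve crush. In the double-labelled pools (3 libraries) the cells carried both DiO, which was applied proximally on day 0, and DiI, which was applied distally on day 2. In the DiO-only pools (3 libraries) the cells carried DiO without DiI. All cells of both groups were therefore injured, with the same genotype, operation and day, and the groups differ in whether the distal dye was present. The study used the distal dye to mark neurons whose regrowing axons were the earliest to arrive there. How many animals stand behind the pools, and their age, are not in the labels. The p-values therefore reflect library-to-library spread, part or all of which may be technical.

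In the intrinsic pathway of apoptosis, BH3-only proteins such as Puma and Noxa free or activate Bax and Bak, which open the outer mitochondrial membrane. Bcl2 and its relatives hold Bax and Bak in check, and released cytochrome c assembles Apaf1 and caspase 9 into the apoptosome. In the extrinsic pathway, death receptors activate caspase 8. The transcription factor p53 induces genes of both pathways, and also genes of cell cycle arrest and stress defence such as *Cdkn1a*, *Gadd45a* and *Sesn1*, while Mdm2 and Mdm4 restrain it. Adult motor neurons survive a peripheral crush far better than newborn ones do, and *Gadd45a* and *Cdkn1a* are known to be induced by axon injury in peripheral neurons.

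The promoters of 4 target genes are shown because these are the members with lower levels in all double-labelled pools than in any DiO-only pool. Each line gives a RefSeq window on GRCm38.p6, the assembly also called mm10, of 300 bases from 250 before to 50 after an annotated start, 5′ to 3′ on the gene's strand. The windows are chr2:54085503-54085802 (minus strand) for *Rprm*, chr17:29090729-29091028 (plus strand) for *Cdkn1a*, chr6:67037358-67037657 (minus strand) for *Gadd45a* and chr13:51846425-51846724 (plus strand) for *Gadd45g*. Capitals mark matches on either strand to the p53 decamer, the GC box GGGCGG, the TATA box TATAAA, the AP-1 site TGANTCA or the cyclic AMP response element TGACGTCA.
Rprm: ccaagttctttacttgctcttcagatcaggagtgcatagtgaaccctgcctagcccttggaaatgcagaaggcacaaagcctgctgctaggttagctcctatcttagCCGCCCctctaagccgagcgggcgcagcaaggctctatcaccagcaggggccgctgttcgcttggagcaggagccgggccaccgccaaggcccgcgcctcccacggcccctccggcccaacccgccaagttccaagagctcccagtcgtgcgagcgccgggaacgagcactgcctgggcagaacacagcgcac
Cdkn1a: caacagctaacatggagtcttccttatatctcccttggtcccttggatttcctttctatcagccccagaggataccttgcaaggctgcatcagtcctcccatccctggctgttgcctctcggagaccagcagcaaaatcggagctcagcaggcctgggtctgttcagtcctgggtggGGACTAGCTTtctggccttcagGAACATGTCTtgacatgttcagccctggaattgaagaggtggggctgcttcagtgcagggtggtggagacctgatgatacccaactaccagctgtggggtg
Gadd45a: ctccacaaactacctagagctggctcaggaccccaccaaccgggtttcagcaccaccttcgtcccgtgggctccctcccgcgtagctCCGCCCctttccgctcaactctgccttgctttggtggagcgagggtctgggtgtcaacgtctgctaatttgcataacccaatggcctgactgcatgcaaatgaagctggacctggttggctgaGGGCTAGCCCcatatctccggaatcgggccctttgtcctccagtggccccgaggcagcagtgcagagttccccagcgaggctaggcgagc
Gadd45g: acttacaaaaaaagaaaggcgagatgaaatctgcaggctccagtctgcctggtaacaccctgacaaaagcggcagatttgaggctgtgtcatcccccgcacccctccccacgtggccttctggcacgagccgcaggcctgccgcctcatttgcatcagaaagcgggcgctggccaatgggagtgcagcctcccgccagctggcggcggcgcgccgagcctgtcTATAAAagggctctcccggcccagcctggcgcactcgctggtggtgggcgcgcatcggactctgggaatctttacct

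The *Cdkn1a* window holds 2 p53 decamers, which begin at -73 and -51 from the start shown. RefSeq has a further start of *Cdkn1a* downstream of this one. Such a pair of decamers, at most 13 bases apart, was found in 24 of 32851 promoter windows (0.0731%). Only strict matches to RRRCWWGYYY were counted (R is A or G, W is A or T, Y is C or T). The letters tgacatgttc, directly after the decamer at -51, miss this pattern at their first base and were not counted. A single p53 decamer lies at -40 in *Gadd45a*, which also has a GC box at -163, and none was found in the windows of *Rprm* and *Gadd45g*. Windows were found for 33 of the 37 members, of which 6 (18.2%) held a p53 decamer, against 8.36% of all windows. These 6 were *Bax*, *Ccng1*, *Cdkn1a*, *Gadd45a*, *Mdm2* and *Trp53*. *Gadd45g* has a TATA box at -27, a motif found in 13.6% of all windows, and *Rprm* a GC box at -143, found in 35.7%. None of these 4 windows holds the AP-1 site or the cyclic AMP response element, which were found in 7.81% and 1.79% of all windows. A match is a run of letters and was not tested for binding.

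Libraries held 2997714 to 6563403 counts, and 3 counts corresponded to 0.457 to 1.00 CPM, the count of a gene scaled to library size. Other features of the libraries differed between the groups too. All 7 motor neuron markers were detected, with a summed level of 2308 to 4258 CPM in double-labelled pools and 2577 to 4357 CPM in DiO-only pools. The 10 oligodendrocyte markers summed to 1325 to 5608 CPM in double-labelled pools, against 229 to 629 CPM in DiO-only pools, with *Mbp* as the most abundant. All 10 had positive log2 fold changes, 8 of them without overlap, while *Mag* and *Cldn11* overlapped between the groups. The 8 astrocyte markers summed to 552 to 824 CPM in double-labelled pools and 308 to 753 CPM in DiO-only pools, with *S100b* as the most abundant. Of the 7 tested astrocyte markers 5 were higher, 4 of them (*Aqp4*, *Slc1a2*, *Gja1* and *Atp1b2*) without overlap, and the median log2 fold change was 2.45. *Aldh1l1* and *S100b* were lower, with log2 fold changes of -1.27 and -0.13 and overlapping groups. *Slc1a3*, which was not tested, had 4 counts in double-labelled pools and 32 in DiO-only pools. The 8 microglia and macrophage markers summed to 18.7 to 64.9 CPM in double-labelled pools and 45.9 to 55.3 CPM in DiO-only pools. Their directions were mixed. The 3 tested ones were lower and *Cd68* had 0 counts in the double-labelled pools, while *Cx3cr1*, *Tmem119* and *C1qa* had most of their counts in double-labelled pool 3. The 6 endothelial and pericyte markers summed to 1.33 to 9.84 CPM in double-labelled pools and 1.38 to 35.4 CPM in DiO-only pools. *Cldn5* and *Pdgfrb* were at 0 in the double-labelled pools, *Pdgfrb* with 4 counts in all. *Rgs5*, the only tested marker of this list, had 85 counts in double-labelled pools and 34 in DiO-only pools, with overlapping groups. The 5 markers of axotomised neurons were *Atf3*, *Sprr1a*, *Gal*, *Gap43* and *Jun*. They summed to 1752 to 5182 CPM in double-labelled pools and 9245 to 20129 CPM in DiO-only pools. All 5 were lower, 4 of them without overlap, while *Sprr1a* overlapped between the groups. Excitatory interneuron markers summed to 3 to 12.5 CPM in double-labelled pools and 6.4 to 65.9 CPM in DiO-only pools. Inhibitory ones summed to 0.457 to 14.9 CPM in double-labelled pools and 1.07 to 119 CPM in DiO-only pools. Each DiO-only maximum was 1 library, pool 1 for the excitatory and pool 3 for the inhibitory markers. The other DiO-only pools lay within the double-labelled range. Genes with at least 1 count numbered 16039 ± 407 in double-labelled pools and 20249 ± 2640 in DiO-only pools (SD, n = 3; exact permutation test, two-sided, p = 0.1, which is the minimum for 3 against 3). The part of these differences in the results below was not tested. In pools of cells, fewer cells of a type and less RNA per cell cannot be told apart.

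In double-labelled pools the stress and arrest genes *Rprm*, *Cdkn1a*, *Gadd45a* and *Gadd45g* were below every DiO-only pool. The means of the survival gene *Bcl2* were 12.9 ± 8.49 CPM in double-labelled pools and 1.95 ± 1.64 CPM in DiO-only pools, and those of the p53 inhibitor gene *Mdm4* 42.2 ± 27.5 CPM in double-labelled pools and 18.4 ± 3.83 CPM in DiO-only pools (SD, n = 3). The TWEAK receptor gene *Tnfrsf12a* averaged 44.5 ± 13.2 CPM in double-labelled pools and 84.1 ± 38.8 CPM in DiO-only pools (SD, n = 3). The groups overlapped for *Bcl2*, *Mdm4* and *Tnfrsf12a*, as they did for *Bax*, *Casp9*, *Apaf1* and *Trp53*. Of the 37 members 30 had enough counts for the test, and 0 of them passed at an adjusted p under 0.05 (edgeR quasi-likelihood test), where 0% of the 12954 tested genes passed. At an unadjusted p under 0.05 there were 7 members, 2 higher and 5 lower in double-labelled pools, against 5.81% of all tested genes (3.18% higher and 2.63% lower). The groups did not overlap for 5 members, 1 higher and 4 lower, against 12.9% of all tested genes (5.86% higher and 7.07% lower). DESeq2, which called 75 genes (0.492%), called 1 member, *Rprm*. edgeR without a filter on low counts called 79 genes (0.277%), with *Rprm* and *Cdkn1a* among them, and edgeR with the replicate number as a block called 23 genes (0.178%), with *Rprm* among them. The 2 members at an unadjusted p under 0.05 on the higher side became 0 without double-labelled pool 1, without DiO-only pool 2 or without DiO-only pool 3, and 1 without DiO-only pool 1.

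**Figure D1:**
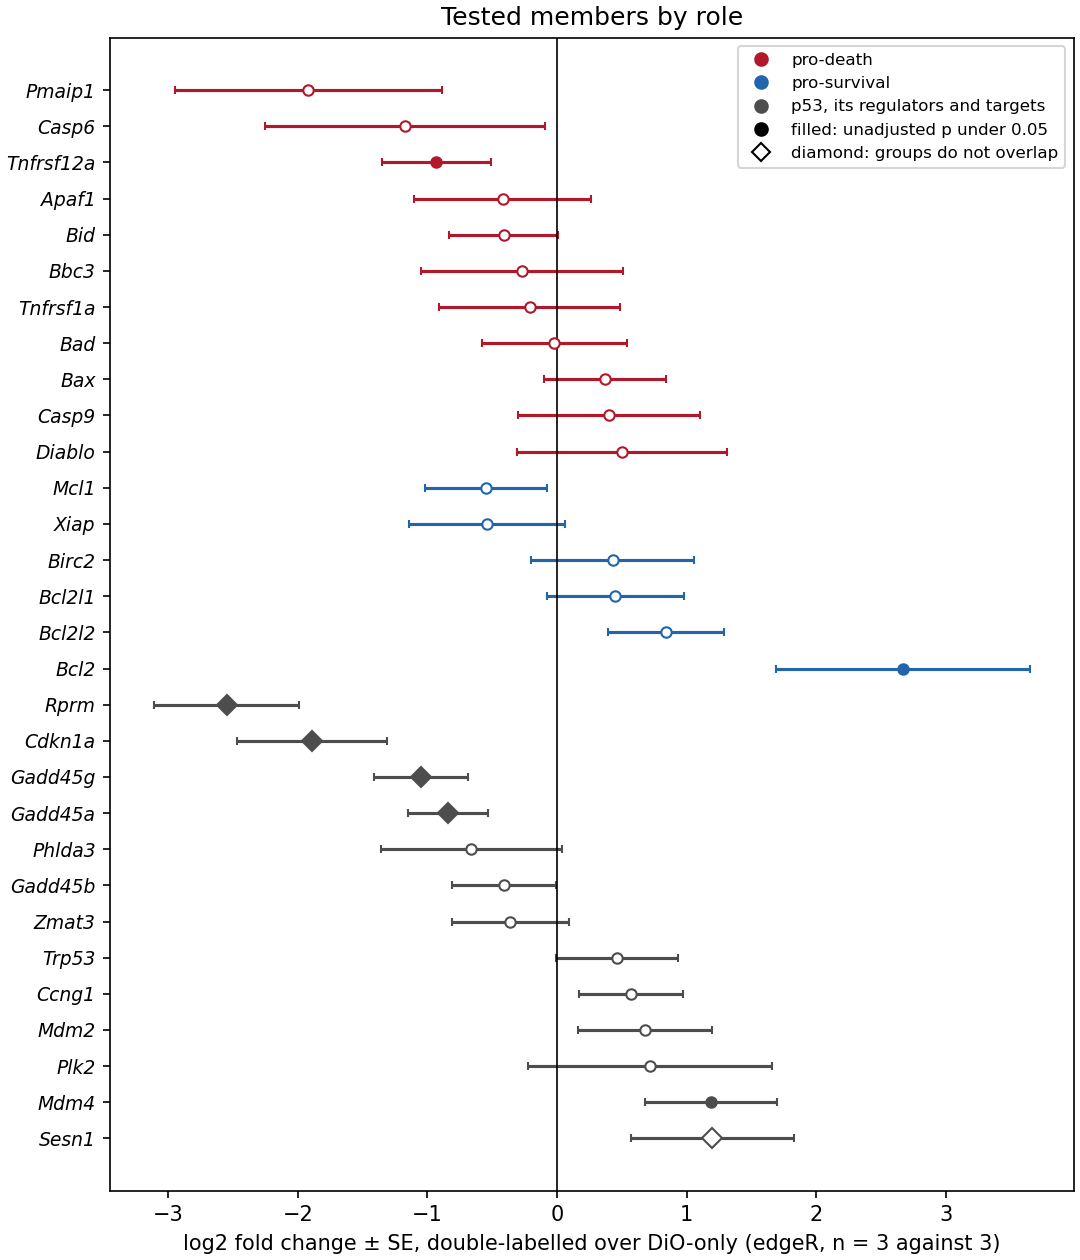
Log2 fold changes with standard errors for the 30 tested members (x axis, double-labelled over DiO-only pools), grouped by role. Filled symbols have an unadjusted p under 0.05, diamonds mark members whose groups do not overlap, and the 4 filled diamonds, *Rprm*, *Cdkn1a*, *Gadd45g* and *Gadd45a*, lie on the lower side.

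Neither *Trp53* nor its regulators passed the test, and all 3 genes overlapped between the groups. *Trp53* had 32.5, 30.7 and 22.9 CPM (scaled with TMM factors, as all CPM values of single genes) in double-labelled pools 1, 2 and 3, against 29.5, 11.4 and 21.5 CPM in DiO-only pools 1, 2 and 3. The groups overlap, and DiO-only pool 2 is the lowest library (edgeR log2 fold change 0.46 ± 0.47, SE; adjusted p = 0.970). *Mdm2* encodes the ubiquitin ligase that marks p53 for degradation and is itself a p53 target. It had 41.1, 11.7 and 46.4 CPM in double-labelled pools, against 21.6, 18.7 and 22.0 CPM in DiO-only pools, so that double-labelled pool 2 lies below all DiO-only pools and the other double-labelled pools above them (edgeR log2 fold change 0.68 ± 0.52, SE; adjusted p = 0.957). *Mdm4* (chromosome 1, 132959484 to 133030561, minus strand) encodes a relative of Mdm2 that binds and masks the activation domain of p53. *Mdm4* had 72.7, 34.4 and 19.4 CPM in double-labelled pools, against 17.1, 15.4 and 22.7 CPM in DiO-only pools. Double-labelled pool 1 is the highest, and double-labelled pool 3 lies within the DiO-only range (edgeR log2 fold change 1.19 ± 0.51, SE; adjusted p = 0.796). The value of *Mdm4* was 0.54 without double-labelled pool 1 and 1.53 without double-labelled pool 3. Leaving out single libraries gave *Mdm4* an unadjusted p under 0.05 in 2 of 6 edgeR runs.

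Among the targets of p53, the lowest relative level in double-labelled pools belonged to *Rprm*, which encodes Reprimo, a mediator of arrest before mitosis (ENSMUSG00000075334; chromosome 2, 54084093 to 54085552, minus strand). *Rprm* had 11.7, 5.12 and 13.7 CPM in double-labelled pools, against 92.2, 25.1 and 64.3 CPM in DiO-only pools. Every double-labelled pool is below every DiO-only pool, and pool 2 is the lowest library in each group. Its mean was 10.2 ± 4.48 CPM in double-labelled pools and 60.5 ± 33.7 CPM in DiO-only pools (SD, n = 3), a fitted level 5.86-fold lower (edgeR log2 fold change -2.55 ± 0.56, SE; adjusted p = 0.357). Its p ranked 26 among the 12954 tested genes. DESeq2 gave *Rprm* an adjusted p of 0.00476 and edgeR without a filter on low counts 0.000236, and leaving out single libraries gave log2 fold changes from -2.92 to -2.13.

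*Cdkn1a* encodes p21, an inhibitor of cyclin-dependent kinases and the best known target of p53 (ENSMUSG00000023067; chromosome 17, 29090976 to 29100727, plus strand). It had 54.9, 169 and 25.5 CPM in double-labelled pools, against 221, 406 and 292 CPM in DiO-only pools. The groups do not overlap, although double-labelled pool 2 comes near DiO-only pool 1, and pool 2 is the highest library in each group. Its mean was 83.3 ± 76.1 CPM in double-labelled pools and 306 ± 93.1 CPM in DiO-only pools (SD, n = 3). The fitted log2 fold change of *Cdkn1a* was -1.89 ± 0.58 (SE), with an edgeR adjusted p of 0.617. Leaving out single libraries gave values from -2.96, without double-labelled pool 2, to -1.46, without double-labelled pool 3. *Cdkn1a* was called when edgeR was run on all genes with counts (adjusted p = 0.000416).

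The GADD45 family consists of small stress-induced proteins that bind p21 and activate a kinase upstream of p38 and JNK. *Gadd45a* (ENSMUSG00000036390; chromosome 6, 67035096 to 67037457, minus strand) had 163, 209 and 146 CPM in double-labelled pools, against 296, 379 and 251 CPM in DiO-only pools. *Gadd45g* (ENSMUSG00000021453; chromosome 13, 51846678 to 51848468, plus strand) had 175, 75.0 and 148 CPM in double-labelled pools, against 296, 298 and 233 CPM in DiO-only pools. For both genes each double-labelled pool is below each DiO-only pool, with log2 fold changes of -0.84 ± 0.31 (SE; edgeR adjusted p = 0.720) and -1.05 ± 0.36 (SE; edgeR adjusted p = 0.681). *Gadd45b*, the relative known from cytokine signalling, had 18.5, 39.2 and 31.9 CPM in double-labelled pools, against 40.7, 37.7 and 40.2 CPM in DiO-only pools. Its groups overlap by double-labelled pool 2 alone (edgeR log2 fold change -0.41 ± 0.40, SE; adjusted p = 0.970). *Gadd45a* shares 337 exon bases with the antisense gene *E230016M11Rik*, which had 3073 counts to the 7074 of *Gadd45a* and a log2 fold change of -0.70 ± 0.33 (SE). Reads in the shared stretch cannot be told apart if strand was not used in counting.

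**Figure D2:**
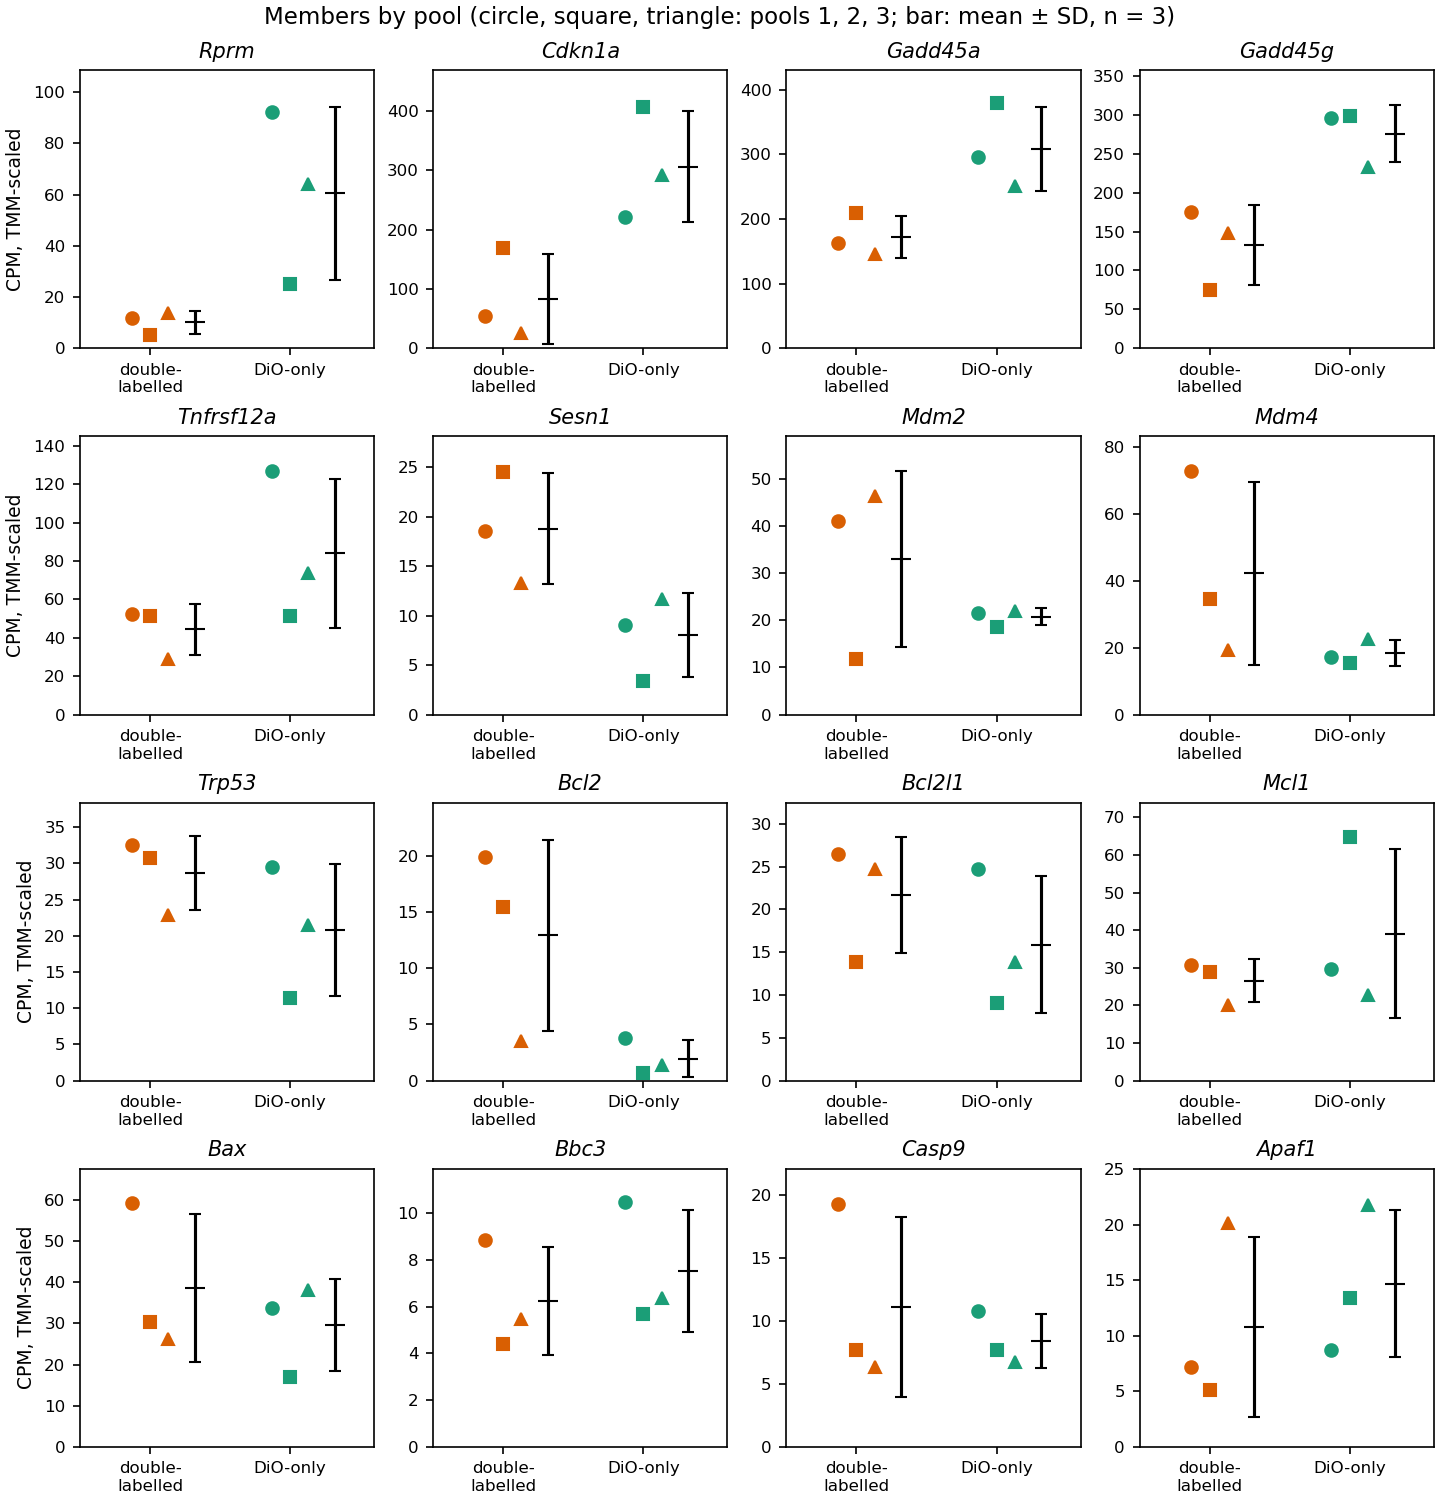
TMM-scaled CPM (y axis, from 0) of 16 members in each pool, double-labelled pools in orange and DiO-only pools in green, with the mean and SD beside the 3 points. *Rprm*, *Cdkn1a*, *Gadd45a* and *Gadd45g* in the top row do not overlap between groups, *Sesn1* does not overlap on the higher side, and the other 11 overlap.

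Of the other 6 tested targets, *Gadd45b*, *Phlda3* and *Zmat3* had negative log2 fold changes, and *Sesn1*, *Ccng1* and *Plk2* positive ones. *Sesn1*, of a sestrin that restrains growth signalling under stress (chromosome 10, 41809935 to 41908424, plus strand), had 18.5, 24.5 and 13.3 CPM in double-labelled pools, against 9.04, 3.34 and 11.7 CPM in DiO-only pools. It is the member with every double-labelled pool above every DiO-only pool (edgeR log2 fold change 1.20 ± 0.63, SE; adjusted p = 0.885). *Ccng1*, of cyclin G1, which steers a phosphatase to Mdm2, had 46.0, 26.7 and 53.7 CPM in double-labelled pools, against 28.4, 34.1 and 23.2 CPM in DiO-only pools. Double-labelled pool 2 lies within the DiO-only range of *Ccng1* (edgeR log2 fold change 0.57 ± 0.40, SE; adjusted p = 0.955). *Phlda3*, whose product competes with Akt for membrane lipids, ran from 12.1 to 78.3 CPM in double-labelled pools and from 17.0 to 95.7 CPM in DiO-only pools. *Zmat3*, of an RNA-binding protein, ran from 19.3 to 35.8 CPM in double-labelled pools and from 26.1 to 57.1 CPM in DiO-only pools. *Plk2*, of a polo-like kinase active at synapses, ran from 2.20 to 20.5 CPM in double-labelled pools and from 2.67 to 16.3 CPM in DiO-only pools. These 3 genes overlapped, with log2 fold changes of -0.66, -0.36 and 0.72 (edgeR adjusted p = 0.971, 0.978 and 0.978). The value of *Phlda3* was -1.84 without double-labelled pool 3 and -0.14 without DiO-only pool 3, and that of *Plk2* was 0.10 without double-labelled pool 3 and 2.10 without DiO-only pool 1. Of the 10 tested targets 3 were higher and 7 lower, and their median log2 fold change was -0.54, where the median over all tested genes was 0.02. As a group, the double-labelled pools had lower *Cdkn1a* and *Rprm*. They also had higher oligodendrocyte markers and lower axotomy markers. Astrocyte markers were mixed, with 5 of 7 tested ones higher, and *Aldh1l1* and *S100b* lower with overlapping groups. Within the groups *Cdkn1a* and *Rprm* differed in this respect. In each group pool 2 had the lowest oligodendrocyte sum and the highest sum of axotomy markers. In each group it also had the highest *Cdkn1a*, as in the order between the groups, but the lowest *Rprm*, unlike that order. The part of these markers in the result was not tested.

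A wider list of 37 other p53 pathway genes was made up of further targets and of modifiers such as *Atm* and *Usp7*. Of its 27 tested genes 0 had an unadjusted p under 0.05 in edgeR, against 5.81% of all tested genes (3.18% higher and 2.63% lower). In this list 9 genes were lower and 18 higher, and their median log2 fold change was 0.27. *Aen*, of a p53-induced nuclease, had 5.14, 10.2 and 26.4 CPM in double-labelled pools, against 31.8, 12.7 and 51.7 CPM in DiO-only pools (edgeR log2 fold change -1.19 ± 0.67, SE; adjusted p = 0.899). *Fdxr*, of a mitochondrial ferredoxin reductase, and *Trp53i11* were next on the lower side, with log2 fold changes of -1.34 and -0.64. On the higher side stood *Usp7*, of the deubiquitinase of Mdm2 and p53, with 65.5, 75.0 and 87.6 CPM in double-labelled pools, against 42.3, 51.8 and 66.8 CPM in DiO-only pools (edgeR log2 fold change 0.50 ± 0.33, SE; adjusted p = 0.942). *Usp7* overlaps between the groups by a narrow margin, and *Trp53inp2* and *Wrap53* followed it with log2 fold changes of 0.59 and 1.23. *Xpc*, of a sensor of DNA damage, and *Foxo3*, of a stress-responsive transcription factor, were the genes of this list with every double-labelled pool above every DiO-only pool. Over all tested genes 5.86% had this pattern.

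Of the pro-death genes of the BCL2 family, none of the 5 tested had an unadjusted p under 0.05. *Bax*, of the protein that forms pores in the mitochondrial membrane, had 59.4, 30.4 and 26.1 CPM in double-labelled pools, against 33.8, 17.0 and 38.1 CPM in DiO-only pools. Double-labelled pool 1 is the highest and the others lie within the DiO-only range (edgeR log2 fold change 0.37 ± 0.47, SE; adjusted p = 0.978), and without double-labelled pool 1 the value was -0.08. *Bbc3*, of the BH3-only protein Puma, had 8.84, 4.39 and 5.49 CPM in double-labelled pools, against 10.5, 5.68 and 6.36 CPM in DiO-only pools (edgeR log2 fold change -0.27 ± 0.78, SE; adjusted p = 0.987). *Pmaip1*, of the BH3-only protein Noxa, had 6.37, 1.83 and 0.402 CPM in double-labelled pools, against 9.04, 17.7 and 6.19 CPM in DiO-only pools. Its groups overlap only by double-labelled pool 1 and DiO-only pool 3 (edgeR log2 fold change -1.92 ± 1.03, SE; adjusted p = 0.885). The value of *Pmaip1* was -3.43 without double-labelled pool 1 and -1.39 without double-labelled pool 3. *Bid*, which links death receptors to mitochondria, ran from 16.4 to 24.7 CPM in double-labelled pools and from 24.4 to 30.6 CPM in DiO-only pools, an overlap of 1 double-labelled pool. *Bad*, which is held inactive by Akt phosphorylation, stood at 45.8, 43.2 and 8.44 CPM in double-labelled pools, against 37.8, 35.1 and 25.3 CPM in DiO-only pools. Double-labelled pool 3 is the low library for *Bad*, and the others lie above all DiO-only pools. *Bid* and *Bad* share exon bases with *Bcl2l13* and *Gpr137* on the opposite strand, so their counts are uncertain to that extent.

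None of the 4 tested genes of the caspase machinery had an unadjusted p under 0.05 in edgeR with all libraries. *Casp9*, the initiator caspase of the apoptosome, had 19.3, 7.69 and 6.30 CPM in double-labelled pools, against 10.8, 7.68 and 6.70 CPM in DiO-only pools (edgeR log2 fold change 0.40 ± 0.70, SE; adjusted p = 0.987). *Apaf1*, its scaffold, had 7.19, 5.12 and 20.1 CPM in double-labelled pools, against 8.75, 13.4 and 21.8 CPM in DiO-only pools (edgeR log2 fold change -0.42 ± 0.68, SE; adjusted p = 0.983). Both genes overlap, with *Casp9* high in double-labelled pool 1 and *Apaf1* high in pool 3 of each group. The value of *Apaf1* was -1.25 without double-labelled pool 3 and -0.03 without DiO-only pool 3. *Casp6*, an executioner caspase known from axon degeneration, had 0 CPM in double-labelled pool 1, 5.12 CPM in pool 2 and 30.0 CPM in pool 3, against 26.8, 16.7 and 36.9 CPM in DiO-only pools. A count of 0 in double-labelled pool 1 allows up to 0.602 CPM at 3 counts, and double-labelled pool 3 lies within the DiO-only range (edgeR log2 fold change -1.17 ± 1.08, SE; adjusted p = 0.970). The value of *Casp6* was -3.53 without double-labelled pool 3 and -0.59 without double-labelled pool 1, and limma voom gave -2.75 (unadjusted p = 0.0402, adjusted p = 0.630). *Diablo*, whose product is released from mitochondria and blocks inhibitors of caspases, ran from 5.63 to 14.0 CPM in double-labelled pools and from 3.79 to 10.0 CPM in DiO-only pools. *Diablo* overlaps 3 other annotated genes in its exons, and without double-labelled pool 1 the log2 fold changes of *Casp9* and *Diablo* were -0.28 and -0.06, against 0.40 and 0.50 with all pools.

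Of the receptors of the tumour necrosis factor family, *Tnfrsf12a* and *Tnfrsf1a* had enough counts. *Tnfrsf12a* encodes Fn14, the receptor of the cytokine TWEAK, which lacks a death domain and is known to be induced in injured tissue (chromosome 17, 23675445 to 23677468, minus strand). It had 52.6, 51.6 and 29.2 CPM in double-labelled pools, against 127, 51.4 and 73.9 CPM in DiO-only pools. DiO-only pool 2 lies just below the 2 higher double-labelled pools, and DiO-only pool 1 is the highest library (edgeR log2 fold change -0.93 ± 0.42, SE; adjusted p = 0.851). Without DiO-only pool 1 the value was -0.51. It is the gene with an unadjusted p under 0.05 among those counted as pro-death. *Tnfrsf1a*, of the main receptor of tumour necrosis factor, had 9.45, 30.7 and 134 CPM in double-labelled pools, against 61.0, 54.5 and 87.3 CPM in DiO-only pools. The double-labelled pools span a 14.1-fold range that encloses the DiO-only pools (edgeR log2 fold change -0.21 ± 0.70, SE; adjusted p = 0.987). The value of *Tnfrsf1a* was -1.78 without double-labelled pool 3 and 0.28 without double-labelled pool 1.

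Among the pro-survival genes, *Bcl2* had the largest difference. *Bcl2*, of the founding inhibitor of mitochondrial apoptosis (ENSMUSG00000057329; chromosome 1, 106538178 to 106714274, minus strand), had 19.9, 15.4 and 3.48 CPM in double-labelled pools, against 3.79, 0.668 and 1.37 CPM in DiO-only pools. Double-labelled pools 1 and 2 are above all DiO-only pools, and double-labelled pool 3 lies just under DiO-only pool 1. The gene had 201 counts over the 6 libraries, a low level (edgeR log2 fold change 2.67 ± 0.98, SE; adjusted p = 0.720), and leaving out single libraries gave values from 2.21, without double-labelled pool 1, to 3.57, without DiO-only pool 1, with an unadjusted p under 0.05 in 2 of 6 runs. An antisense gene, *D630008O14Rik*, shares 558 of its exon bases. The oligodendrocyte markers and 5 of 7 tested astrocyte markers were higher in the double-labelled pools too, and their part in the level of *Bcl2* was not tested.

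The other pro-survival genes overlapped. *Bcl2l1*, of Bcl-xL, which maintains mature neurons, had 26.5, 13.9 and 24.7 CPM in double-labelled pools, against 24.7, 9.02 and 13.9 CPM in DiO-only pools (edgeR log2 fold change 0.45 ± 0.53, SE; adjusted p = 0.978). *Mcl1*, of a short-lived relative, had 30.8, 28.9 and 20.0 CPM in double-labelled pools, against 29.8, 64.8 and 22.7 CPM in DiO-only pools. DiO-only pool 2 is the library that stands out for *Mcl1* (edgeR log2 fold change -0.55 ± 0.47, SE; adjusted p = 0.967), and without it the value was 0.02. *Bcl2l2*, of Bcl-w, stood at 113 CPM in double-labelled pool 1 and between 33.1 and 41.0 CPM in the other 5 libraries (edgeR log2 fold change 0.84 ± 0.45, SE; adjusted p = 0.885), and without that pool the value was 0.14. *Birc2*, of the ubiquitin ligase cIAP1, likewise stood at 41.3 CPM in double-labelled pool 1 and between 8.31 and 19.1 CPM elsewhere, and its log2 fold change of 0.43 ± 0.63 (SE) became -0.56 without that pool. *Xiap*, which binds and blocks caspases, ran from 5.14 to 14.3 CPM in double-labelled pools and from 12.1 to 19.0 CPM in DiO-only pools. The 6 pro-survival genes had a median log2 fold change of 0.44, which was -0.03 without double-labelled pool 1, and the 11 tested pro-death genes one of -0.27.

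**Figure D3:**
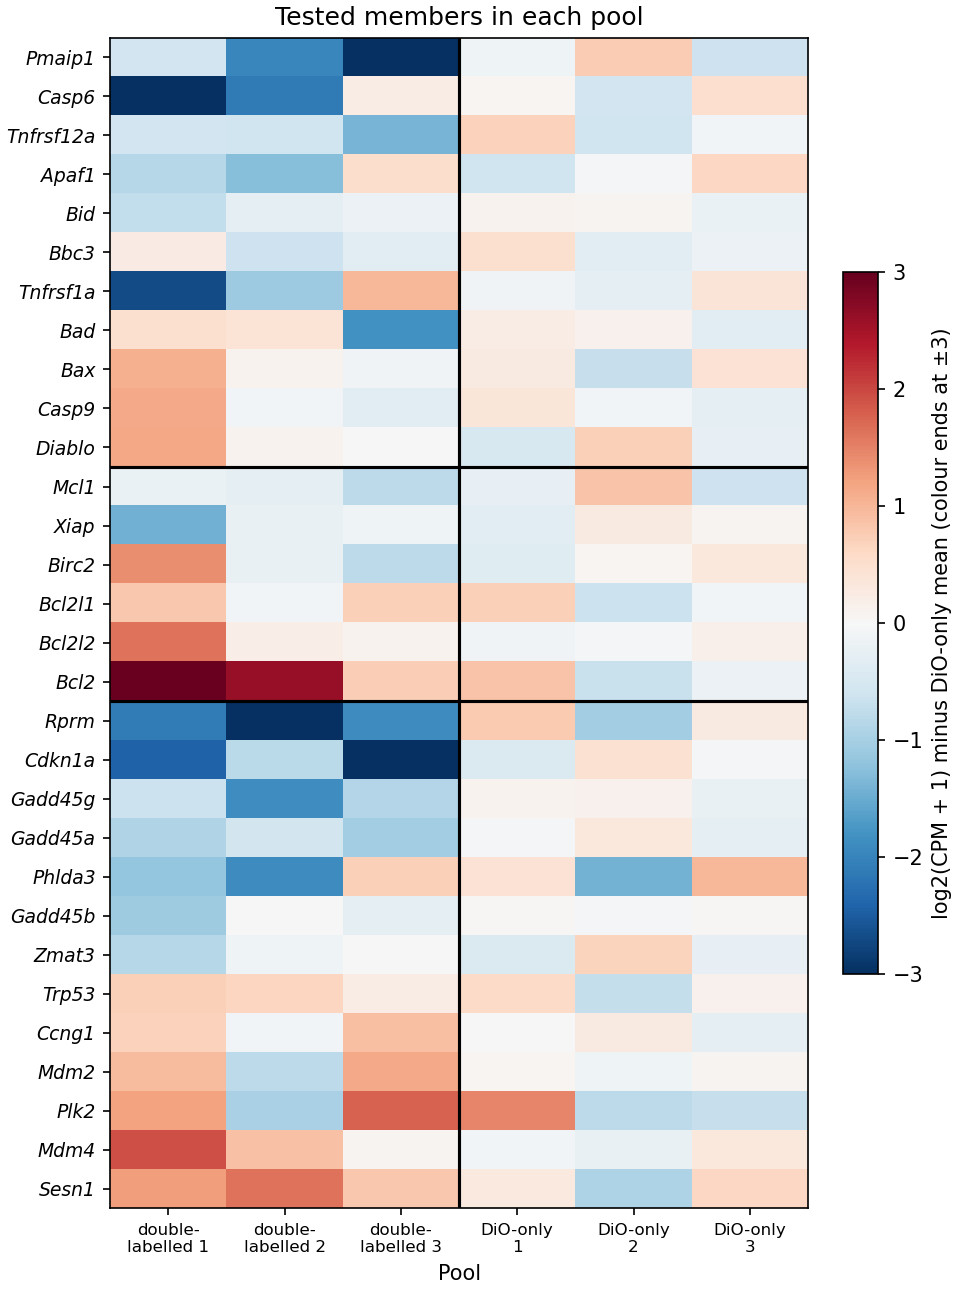
Each tested member (rows, pro-death genes at the top, pro-survival genes in the middle, p53 axis at the bottom) in each pool (columns), as log2(CPM + 1) minus the mean of the DiO-only pools. *Rprm*, *Cdkn1a*, *Gadd45g* and *Gadd45a* are blue in all 3 double-labelled pools, while *Casp6*, *Tnfrsf1a* and *Apaf1* are blue in double-labelled pools 1 and 2 and red in pool 3.

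A further 34 apoptosis genes were counted in the same way. Of 21 tested, 0 passed, 2 had an unadjusted p under 0.05, both lower, and the median log2 fold change was -0.03. *Parp1*, of a DNA repair enzyme that caspases cleave, had 76.8, 60.4 and 87.9 CPM in double-labelled pools, against 121, 159 and 147 CPM in DiO-only pools, without overlap (edgeR log2 fold change -0.92 ± 0.31, SE; adjusted p = 0.683). *Tnfrsf1b*, of the second receptor of tumour necrosis factor, had 0, 0.732 and 2.95 CPM in double-labelled pools, against 12.3, 14.4 and 4.64 CPM in DiO-only pools, again without overlap (edgeR adjusted p = 0.778). *Dffa*, of the inhibitor of the caspase-activated nuclease, followed with a log2 fold change of -0.46 ± 0.31 (SE; edgeR adjusted p = 0.951). The higher genes of smallest p were *Ripk1*, *Traf2* and *Bnip3*, with log2 fold changes of 1.40, 1.36 and 0.27 and overlapping groups.

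The 7 members without enough counts for the test were *Bak1*, *Bcl2l11*, *Hrk*, *Casp8*, *Fas*, *Tnfrsf10b* and *Trp53inp1*, with 5 to 46 counts over all libraries. *Hrk*, a neuronal BH3-only gene, had 3, 6 and 0 counts in double-labelled pools, against 2, 2 and 33 in DiO-only pools, so DiO-only pool 3 held most of them. *Bak1*, the partner of *Bax*, had 15 counts in all and *Bcl2l11*, of Bim, had 33, of which double-labelled pool 2 held 16. *Casp8* had 6 counts, all in DiO-only pool 3, and *Fas* had 23, of which DiO-only pool 1 held 21. *Tnfrsf10b*, of the TRAIL receptor, had 5 counts, all in DiO-only pools, and *Trp53inp1*, of an autophagy protein induced by p53, had 12 in double-labelled pools and 25 in DiO-only pools. At 3 counts, levels under 0.457 to 1.00 CPM could not be detected in single libraries.

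Per kilobase of exon, *Gadd45g* and *Gadd45a* were the most abundant members in both groups. The mean level was 113 CPM per kilobase for *Gadd45g* in double-labelled pools, against 235 in DiO-only pools, and 97.9 for *Gadd45a*, against 175. *Cdkn1a* had 23.4 CPM per kilobase in double-labelled pools, close to *Bax*, *Phlda3* and *Tnfrsf12a*, and 86.3 in DiO-only pools. At 3 or fewer CPM per kilobase in both groups stood *Apaf1*, *Casp9*, *Xiap*, *Mdm4* and *Bcl2*, among others, with *Bcl2* at 1.41 in double-labelled pools and 0.212 in DiO-only pools. In double-labelled pools *Bax* stood at 24.5 CPM per kilobase, above *Bcl2l2* at 14.4, *Mcl1* at 7.77 and *Bcl2l1* at 4.73. In DiO-only pools *Bax* was at 18.8, *Mcl1* at 11.4, *Bcl2l2* at 8.06 and *Bcl2l1* at 3.46. The length used was that of all annotated exons of a gene merged, so these orders between genes are approximate.

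The spread between pools was wider in the double-labelled group, for the members as for other genes. The SD of log2 CPM was larger in double-labelled pools for 21 of 30 tested members (70.0%) and for 69.4% of all tested genes. Its median over the members was 0.75 in double-labelled pools and 0.51 in DiO-only pools, and over all tested genes 0.72 in double-labelled pools and 0.47 in DiO-only pools. *Casp6*, *Tnfrsf1a*, *Plk2* and *Pmaip1* had the widest spread among double-labelled pools, while *Gadd45a*, *Trp53*, *Bid* and *Mcl1* had the narrowest.

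**Figure D4:**
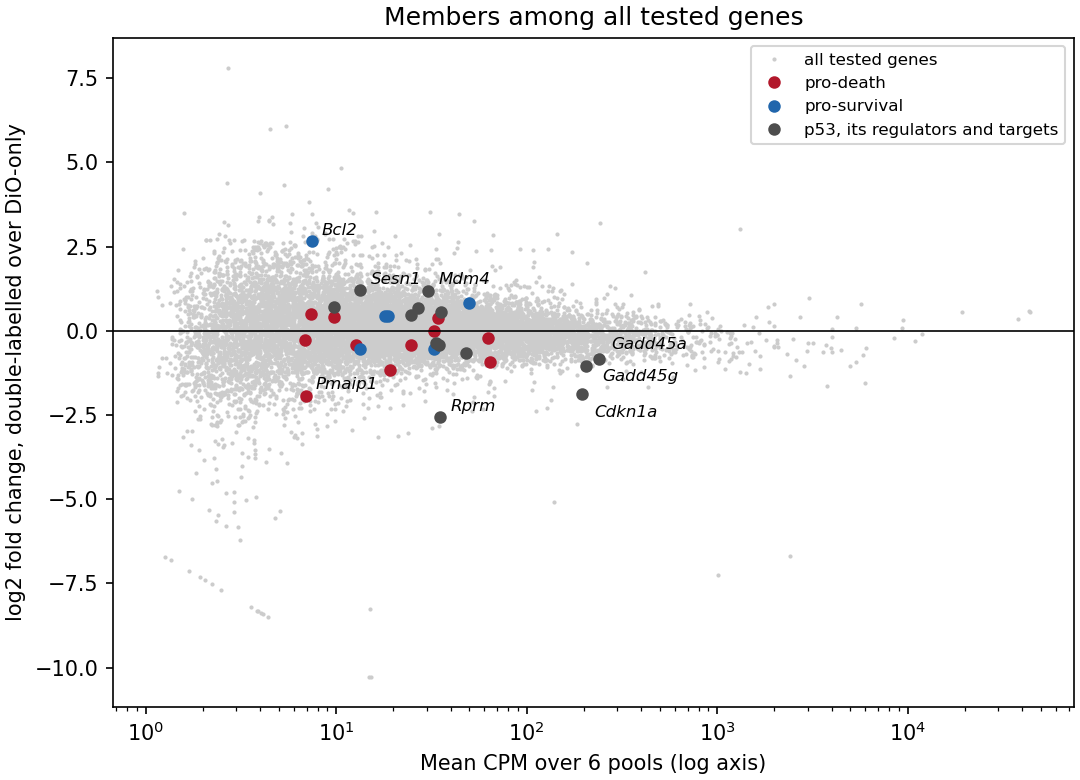
Log2 fold change (y axis, double-labelled over DiO-only pools) against mean CPM over the 6 pools (log x axis) for the 12954 tested genes in grey and the 30 tested members in colour. *Rprm* and *Cdkn1a* lie at the lower edge of genes of similar level, and most members lie within the grey cloud.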

How the data were processed

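RNA of 6 pools of picked, dye-labelled motor neurons was amplified with a SMART-Seq kit, per the labels' protocols. The authors deposited raw read counts per gene. The submitters' processing notes name HISAT2, HTSeq, FastQC and mm10. The strand setting, gene annotation, tool versions and multiple-mapping rules were not given in the sources used here. All 53858 identifiers matched GENCODE M21, which gave coordinates (1-based), exon lengths and overlaps.

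Genes were filtered with filterByExpr of edgeR 4.0.16 (R 4.3.3), which kept 12954, scaled with TMM factors and compared with the robust quasi-likelihood test, two-sided, with Benjamini-Hochberg adjustment over all tested genes and a threshold of 0.05. The SE is the log2 fold change over the root of its F statistic. Summed marker CPM use total counts. The edgeR test was tested on simulated counts. The alternatives were other scalings, other filters, DESeq2 1.42.0, limma 3.58.1 voom, a replicate block and leaving out each library. Members and lists were chosen with earlier results of these data known. Values per pool are given for members with an unadjusted p under 0.05 or groups without overlap at 5 CPM or more, and for a set of members listed by name. Other members given per pool were chosen after their values were seen. Other pathway genes are named for the up to 3 smallest p per list and direction, and where groups do not overlap. Promoters are RefSeq windows, the one nearest to the GENCODE start. Figures were drawn with matplotlib 3.10.9.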

Additional observations from a re-analysis of the deposited data

How the results depend on the processing

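The number of genes called was 0 in edgeR with all scalings, with the stricter filter, in limma voom and without any single library (0 to 0). It was 79 without a filter on low counts, 75 in DESeq2 and 23 with the replicate block, and the members called were 2, 1 and 1. *Rprm* was the member called in each of these, with an adjusted p of 0.0392 under the block. The replicate numbers are not said to be pairs. The correlations of same-numbered pools, as deviations from group means, were 0.0742, 0.228 and 0.203, and every pool correlated best with its own number, which is a hint from the data only. The labels speak of 3 batches without placing the libraries in them, so no value within a batch can be given.

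At an unadjusted p under 0.05 the higher members numbered 1 with total-count scaling, the stricter filter, the replicate block and limma voom, and 0 to 3 without single libraries, where 2 passed with all. The lower members numbered 4 to 6 without single libraries. The median log2 fold change without single libraries ran from -0.55 to -0.12 for pro-death genes, from -0.03 to 0.66 for pro-survival genes and from -0.48 to 0.07 for the p53 axis, whose median was -0.36 with all libraries and -0.09 in limma voom. The cause of these shifts was not tested. *Birc2* turned to -0.04 in limma voom and *Bad* to 0.00 with RLE size factors and in DESeq2. *Casp6* was at -2.75 in limma voom and -2.29 under the replicate block, against -1.17 with the main settings. Without single libraries 9 of 30 members changed sign at least once. Their ranges were -0.08 to 0.58 for *Bax*, -0.61 to 0.04 for *Bbc3*, -0.37 to 0.44 for *Bad*, -0.28 to 0.68 for *Casp9*, -0.06 to 1.03 for *Diablo*, -1.78 to 0.28 for *Tnfrsf1a*, -0.84 to 0.02 for *Mcl1*, -0.56 to 0.81 for *Birc2* and -0.58 to 0.07 for *Zmat3*. *Rprm*, *Cdkn1a* and *Gadd45g* had an unadjusted p under 0.05 in 6 of 6 such runs, *Gadd45a* in 4. *Bcl2*, *Plk2* and *Pmaip1* had too few counts for the stricter filter and have no value there. Counts of PCR reads and 3 pools a group limit the precision.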

Other observations

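Of the 79 members and other pathway genes with at least 100 counts, *Casp2* and *Pidd1* had at least 75% of their counts in 1 pool. *Casp2*, of the initiator caspase that the PIDDosome complex activates, had 132 counts, of which double-labelled pool 3 held 104 (78.8%). *Pidd1*, of the scaffold of that complex and a p53 target, had 138 counts, of which the same pool held 114 (82.6%). *Cradd*, of the adaptor of the complex, had 126 counts, of which the same pool held 46 (36.5%). Of all 12007 genes with at least 100 counts, 102 (0.850%) had at least 75% of them in 1 library, and for 63 of these it was double-labelled pool 3. These genes were chosen after their values were seen. *Casp2* and *Pidd1* had too few counts in the other libraries for the test.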
